A study of Mus musculus with 4 samples.

Results

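The genes described here are 34 mouse genes of meiosis, chosen by name for their known roles in meiotic entry (3 genes), in the chromosome axis and its synapsis (16 genes) and in meiotic recombination (15 genes). They are 34 of the 53715 genes in the count table, and each matched 1 row by symbol. RNA was sequenced from cells labelled as primordial germ cells, from which eggs or sperm derive, of C57BL/6 embryos at E12.5. The groups were 2 libraries labelled Rif1_KO, from embryos labelled as knock out for Rif1, and 2 libraries labelled WT, from wild type embryos of the same strain. After magnetic enrichment, 1000 cells per library were taken through a modified Smart-seq2 protocol, which copies whole transcripts from few cells. No label says which part of Rif1 was removed, which marker the beads bound, or whether replicates are separate embryos. The p-values therefore rest on a spread between libraries that could be technical.

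In the fetal ovary, retinoic acid induces Stra8, whose product acts with MEIOSIN to switch on the meiotic programme, while YTHDC2 and MEIOC clear mitotic transcripts. Chromosomes then build an axis of meiotic cohesin, HORMA-domain and SYCP proteins, and homologues are joined along it by the synaptonemal complex. SPO11 and its partners cut the DNA, DMC1 pairs the cut ends with the homologue, and the MSH4-MSH5 complex and MLH3 help turn some of the joints into crossovers. Female mouse germ cells begin this programme at about the stage sampled here, and male germ cells do so after birth.

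Totals were 12071903 and 14421298 counts in the Rif1_KO-labelled libraries (replicate 1 before replicate 2 throughout) and 12768932 and 11724630 in those labelled WT. Rif1, the targeted gene, stood at 86.2 and 63.9 CPM (counts relative to the TMM-scaled total of the library) in the Rif1_KO-labelled libraries, against 43.7 and 4.73 CPM in those labelled WT. Both Rif1_KO-labelled libraries thus held more Rif1 counts than either labelled WT, so these counts do not bear out the labels. Counts over the whole gene do not show whether a part of it was removed, and all directions below are those of the labels. The log2 fold change of Rif1 was 1.63 (SE 1.01, edgeR adjusted p = 0.717). Of the defining germ cell markers, Pou5f1 had at most 1.20 CPM in any library, and Ddx4 had 1.05 and 0.53 CPM in the Rif1_KO-labelled libraries, against 0.645 and 59.2 CPM in those labelled WT. Ddx4 was thus near 0 in every library but WT replicate 2, and Pou5f1 in all. Not every germ cell marker was low: Dppa3 had 157 and 109 counts in the Rif1_KO-labelled libraries, against 111 and 1532 in those labelled WT. Of 18 such markers, 11 and 14 reached 10 counts in the Rif1_KO-labelled libraries, against 11 and 13 in those labelled WT. Xist, the RNA of the inactive X chromosome, had 37.5 and 98.3 CPM in the Rif1_KO-labelled libraries, against 142 and 135 CPM in those labelled WT. The Y-linked genes Ddx3y, Kdm5d, Eif2s3y and Uty had 0 counts everywhere except for 1 count of Ddx3y and 3 of Eif2s3y in WT replicate 2. These sex-linked genes were chosen after their values were seen. Across all 15466 tested genes, edgeR's quasi-likelihood test called 2 genes at a Benjamini-Hochberg adjusted p under 0.05, which is 0.0129%.

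Most of the meiotic genes were scarce, and WT replicate 2 had the most members detected, though not in every class. Of the 34 members, 15 and 14 were detected, at 10 counts or more, in the Rif1_KO-labelled libraries, against 11 and 21 in those labelled WT. All genes of the table reached 10 counts in 28.4% and 30.2% of cases in the Rif1_KO-labelled libraries, and in 24.8% and 25.3% in those labelled WT. The 3 entry genes were all detected in WT replicate 2 and 1 of the 3 in each other library. Of the axis and synapsis genes, 8 and 5 of 16 were detected in the Rif1_KO-labelled libraries, against 5 and 10 in those labelled WT. Of the recombination genes, 6 and 8 of 15 were detected in the Rif1_KO-labelled libraries, against 5 and 8 in those labelled WT. The summed level of this class was lowest in WT replicate 2. It was 115 and 92.6 CPM in the Rif1_KO-labelled libraries, against 95.3 and 72.2 CPM in those labelled WT. Only 7 members reached 10 counts in all 4 libraries, namely Ythdc2, Rec8, Syce2, Rec114, Msh5, Psmc3ip and Tex15. A further 10 stayed under 10 counts in every library: Syce3, Tex12, Rad21l, Majin, Terb1, Terb2, Spo11, Mei4, Spata22 and Meiob.

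**Figure D1:**
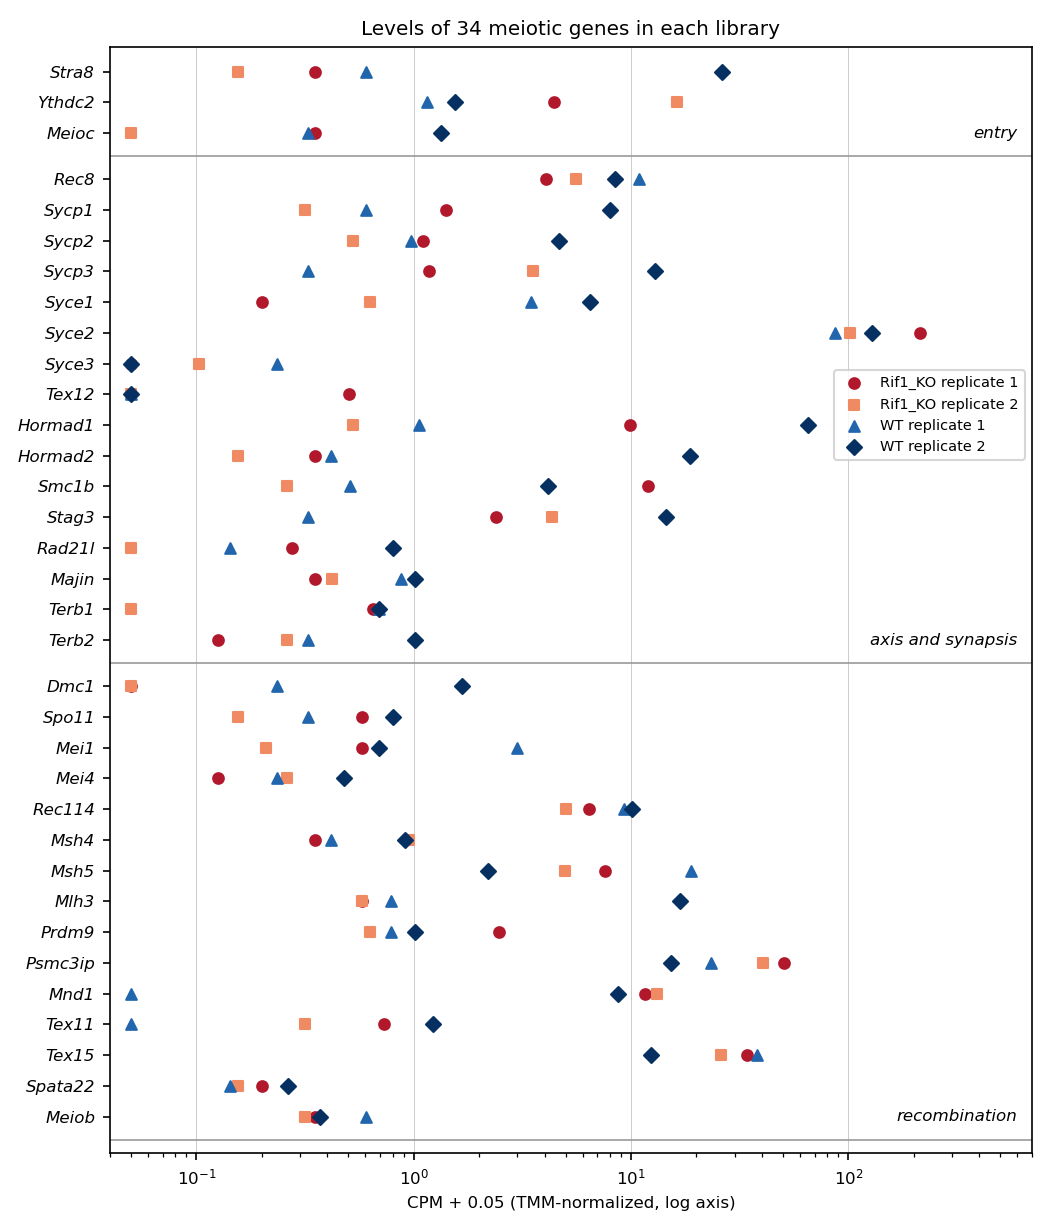
Level of each of the 34 meiotic genes (rows, grouped by role) in each library, as CPM + 0.05 on a log axis, with 1 symbol per library and no averaging. Symbols at 0.05 are 0 counts. Stra8, Hormad1, Hormad2 and Mlh3 lie far to the right in WT replicate 2, while Syce2 is the rightmost gene in every library.

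Of the 24 members with 10 counts or more in at least 1 library, 4 and 3 had their highest level in Rif1_KO replicates 1 and 2, against 4 and 13 in WT replicates 1 and 2. Over all 20040 genes with 10 counts or more in a library, 23.2% and 22.7% were highest in Rif1_KO replicates 1 and 2, against 25.8% and 28.3% in WT replicates 1 and 2. In 6 of the 24 members the level in WT replicate 2 was at least 5 times that in the next library, a limit chosen after the values were seen, against 4.55% of all genes. None of the 24 stood out by this limit in any other library. Of all genes, 3.0% and 4.9% did so in Rif1_KO replicates 1 and 2, and 3.5% in WT replicate 1. The 6 were Stra8, Hormad1, Hormad2, Sycp1, Mlh3 and Dmc1. Of these, Stra8, Hormad2 and Dmc1 reached 10 counts in WT replicate 2 alone, Dmc1 with 15 counts. So did Meioc and Tex11, which were also highest there. These genes count among the 24 only through the library where they are high, and lend no support. The shares over all genes use the same filter, and the difference was not tested.

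The promoters of 5 genes with their highest level in WT replicate 2 are shown: the entry switch Stra8, and the axis and synapsis genes Hormad1, Hormad2, Sycp1 and Stag3. Stag3, at 3.36 times the next library, did not reach the limit of 5 times. Mlh3 and Dmc1, which reached it, are not shown. Each promoter shown is the RefSeq window from 250 bases before to 50 after the gene start (GRCm38.p6, gene strand, 5′ to 3′). Capitals mark matches, on either strand, to the E-box CACGTG (the letters bound by MAX with MGA, a repressor of germline genes in other cells), to the STRA8-MEIOSIN motif CNCCTCAG, and to the E2F site GCGGGAA.
Stra8 (chr6:34920698-34920997, + strand): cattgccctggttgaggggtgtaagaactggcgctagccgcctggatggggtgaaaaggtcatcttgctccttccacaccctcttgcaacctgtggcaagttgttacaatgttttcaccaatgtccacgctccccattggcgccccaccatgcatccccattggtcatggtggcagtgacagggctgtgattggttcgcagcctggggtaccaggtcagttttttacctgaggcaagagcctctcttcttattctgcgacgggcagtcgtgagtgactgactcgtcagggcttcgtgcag
Hormad1 (chr3:95559427-95559726, + strand): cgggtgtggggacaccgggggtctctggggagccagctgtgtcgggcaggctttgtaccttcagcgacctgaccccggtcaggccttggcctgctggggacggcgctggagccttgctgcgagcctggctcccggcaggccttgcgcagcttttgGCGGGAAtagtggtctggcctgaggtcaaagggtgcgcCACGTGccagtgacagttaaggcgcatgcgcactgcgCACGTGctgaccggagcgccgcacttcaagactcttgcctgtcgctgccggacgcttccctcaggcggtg
Hormad2 (chr11:4441033-4441332, - strand): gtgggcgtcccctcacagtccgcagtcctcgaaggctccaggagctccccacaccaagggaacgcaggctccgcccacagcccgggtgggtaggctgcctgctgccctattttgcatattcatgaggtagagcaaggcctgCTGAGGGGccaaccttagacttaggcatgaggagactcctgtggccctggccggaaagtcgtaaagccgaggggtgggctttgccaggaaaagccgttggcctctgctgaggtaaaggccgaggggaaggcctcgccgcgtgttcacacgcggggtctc
Sycp1 (chr3:102936051-102936350, - strand): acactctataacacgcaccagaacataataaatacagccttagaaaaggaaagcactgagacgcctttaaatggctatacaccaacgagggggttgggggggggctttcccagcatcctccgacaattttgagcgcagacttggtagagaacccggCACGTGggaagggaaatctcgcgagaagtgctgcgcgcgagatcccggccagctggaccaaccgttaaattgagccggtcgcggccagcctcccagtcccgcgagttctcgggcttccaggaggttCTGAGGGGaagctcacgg
Stag3 (chr5:138280259-138280558, + strand): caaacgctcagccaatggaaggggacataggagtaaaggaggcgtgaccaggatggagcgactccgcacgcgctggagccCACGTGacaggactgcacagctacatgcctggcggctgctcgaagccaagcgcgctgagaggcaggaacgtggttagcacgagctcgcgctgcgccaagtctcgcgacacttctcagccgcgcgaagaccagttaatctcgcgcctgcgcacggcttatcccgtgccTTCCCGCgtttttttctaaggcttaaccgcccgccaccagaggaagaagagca

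The Stra8 window held none of these motifs, and no matches overlapped in the others shown. No window of Mlh3 or Dmc1 held any of them either. Hormad1 held 2 E-boxes and an E2F site, Stag3 held 1 of each, Sycp1 an E-box and a STRA8-MEIOSIN motif, and Hormad2 a STRA8-MEIOSIN motif. RefSeq windows were at hand for 27 of the 34 members, 32 windows in all. The E2F site was in 12 of the 32 windows, against 4.6% of all 32851 windows in the table. The E-box was in 8, against 7.15%, and the STRA8-MEIOSIN motif in 6, against 7.94%. Base composition differed too, with a median of 18 CpG per member window against 7 over all windows. These are matches of letters, not bound sites.

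Among the entry genes, Stra8 (chromosome 6, 34920163 to 34939344, mm10) had 0.301 and 0.106 CPM in the Rif1_KO-labelled libraries, from 4 and 2 counts. In those labelled WT it had 0.553 and 26.2 CPM, from 6 and 244 counts. Only WT replicate 2 was high, at 47.5 times the next library, so the filter on low counts, which asks for a level in at least 2 libraries, removed Stra8 from the main test. Fitted without that filter, its log2 fold change was -5.65 with an edgeR adjusted p of 0.304, in a fit that called 0.119% of all genes and 0 of the 34 members (unadjusted, 3 of the 34 members and 7.05% of all genes were under 0.05). Meioc, for the partner of YTHDC2, had 4 and 0 counts in the Rif1_KO-labelled libraries, against 3 and 12 in those labelled WT. Ythdc2, for the RNA helicase that lowers mitotic transcripts at entry, went the other way, with 4.37 and 16.3 CPM in the Rif1_KO-labelled libraries, against 1.11 and 1.5 CPM in those labelled WT. The groups did not overlap, yet the Rif1_KO-labelled libraries differed from each other 3.73-fold. The log2 fold change of 2.98 (SE 1.45) did not pass (edgeR adjusted p = 0.632). The entry genes thus did not share 1 pattern over the libraries.

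Of the axis genes, Hormad1, for a HORMA-domain protein that marks unsynapsed axes, had 9.80 and 0.477 CPM in the Rif1_KO-labelled libraries, against 1.01 and 64.9 CPM in those labelled WT. One library of each label was high, and the groups overlapped. Its relative Hormad2 had 0.301 and 0.106 CPM in the Rif1_KO-labelled libraries, against 0.368 and 18.6 CPM in those labelled WT, so it was high only in WT replicate 2. Smc1b, for a meiotic cohesin subunit, had 11.9 and 0.212 CPM in the Rif1_KO-labelled libraries, against 0.461 and 4.08 CPM in those labelled WT. Rif1_KO replicate 1 was highest for this gene and WT replicate 2 next. Stag3, another meiotic cohesin subunit, had 2.34 and 4.29 CPM in the Rif1_KO-labelled libraries, against 0.276 and 14.4 CPM in those labelled WT. The libraries labelled Rif1_KO lay between the 2 labelled WT. Rec8, for the meiotic form of the cohesin kleisin, had 3.99 and 5.56 CPM in the Rif1_KO-labelled libraries, against 10.8 and 8.38 CPM in those labelled WT. Rec8 was the most even of these genes and its groups did not overlap, but its log2 fold change of -1.0 (SE 1.27) was not called (edgeR adjusted p = 0.876). The log2 fold changes of Hormad1, Smc1b and Stag3 were -2.68 (SE 2.05), 1.41 (SE 1.95) and -1.14 (SE 1.78), with edgeR adjusted p of 0.781, 0.89 and 0.909, and none was called. Rad21l, for another meiotic kleisin, had at most 7 counts in any library.

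Of the synaptonemal complex genes, Sycp1, for the transverse filament, had 1.36 and 0.265 CPM in the Rif1_KO-labelled libraries, against 0.553 and 7.95 CPM in those labelled WT. Sycp2 and Sycp3 encode the lateral elements. Sycp2 had 1.05 and 0.477 CPM in the Rif1_KO-labelled libraries, against 0.921 and 4.62 CPM in those labelled WT. Both genes were highest in WT replicate 2, and their groups overlapped. Sycp3 had 1.13 and 3.50 CPM in the Rif1_KO-labelled libraries, against 0.276 and 12.8 CPM in those labelled WT, and its groups overlapped too. Its value is uncertain, because 52.2% of its exon bases overlap Chpt1 on the opposite strand (230 and 388 counts in the Rif1_KO-labelled libraries, against 493 and 520 in those labelled WT) and reads were counted without strand. The log2 fold changes of Sycp1, Sycp2 and Sycp3 were -2.39 (SE 1.63), -1.85 (SE 1.22) and -1.49 (SE 1.80), and none was called (edgeR adjusted p of 0.749, 0.737 and 0.869).

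The central element genes ran from a few counts to the highest level of all members. Syce1 had 0.151 and 0.583 CPM in the Rif1_KO-labelled libraries, against 3.41 and 6.45 CPM in those labelled WT, from 2 and 11 counts against 37 and 60. Both Rif1_KO-labelled libraries were below both labelled WT. Its log2 fold change was -3.69 (SE 1.37), the lowest p among the members, but it was not called (edgeR adjusted p = 0.575). Syce2 had 213 and 101 CPM in the Rif1_KO-labelled libraries, against 87.1 and 128 CPM in those labelled WT. Per kb of exons it was at 108 and 51.6 CPM in the Rif1_KO-labelled libraries, against 44.3 and 65.1 CPM in those labelled WT, and it had the highest mean of all members on that scale. Its groups overlapped, with a log2 fold change of 0.55 (SE 0.49, edgeR adjusted p = 0.817). No exon of another gene in the table overlaps Syce2. It made up 58.0% and 44.8% of the summed CPM of the members in the Rif1_KO-labelled libraries, against 42.6% and 34.2% in those labelled WT. The other central element genes, Syce3 and Tex12, had at most 2 and 6 counts in a library. Majin, Terb1 and Terb2, which tie telomeres to the nuclear envelope, had at most 9 counts.

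Among the recombination genes, those that make the DNA breaks were near the limit of detection. Spo11, for the enzyme that cuts, had 7 and 2 counts in the Rif1_KO-labelled libraries, against 3 and 7 in those labelled WT. Mei4 had at most 4 counts, and Mei1 had 7 and 3 counts in the Rif1_KO-labelled libraries, against 32 and 6 in those labelled WT. Rec114, a partner of MEI4, had 6.33 and 4.98 CPM in the Rif1_KO-labelled libraries, against 9.21 and 10.1 CPM in those labelled WT. It was even over the libraries, with a log2 fold change of -0.77 (SE 1.26, edgeR adjusted p = 0.916). Its exons overlap Nptn on the opposite strand over 26.9% of their bases, and Nptn had 423 to 1136 counts. Prdm9, whose product marks the sites of breaks, had 32 and 11 counts in the Rif1_KO-labelled libraries, against 8 and 9 in those labelled WT.

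Genes of strand exchange split between those detected in nearly every library and those almost absent. Dmc1, the meiotic recombinase, had 0 counts in both Rif1_KO-labelled libraries, against 2 and 15 in those labelled WT. A count of 0 allows up to 3 counts, or 0.226 and 0.159 CPM in these 2 libraries. Psmc3ip and Mnd1 encode the HOP2-MND1 pair that stimulates DMC1. Psmc3ip had 50.4 and 40.6 CPM in the Rif1_KO-labelled libraries, against 23.3 and 15.3 CPM in those labelled WT, and the groups did not overlap. The log2 fold change of 1.24 (SE 0.78) did not pass (edgeR adjusted p = 0.723). Its exons overlap Mlx on the opposite strand over 21.2% of their bases, and Mlx had 347 and 505 counts in the Rif1_KO-labelled libraries, against 95 and 10 in those labelled WT. Mnd1 had 11.6 and 13.1 CPM in the Rif1_KO-labelled libraries, against 0 and 8.71 CPM in those labelled WT. Both Rif1_KO-labelled libraries were above both labelled WT, by little over replicate 2, and its log2 fold change of 1.5 (SE 2.08) was not called (edgeR adjusted p = 0.891). Spata22 and Meiob, which encode a pair that binds single-stranded DNA, had at most 2 and 6 counts, and 80.5% of the Spata22 exon bases are shared with another gene model.

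Of the crossover genes, Mlh3 had 0.527 and 0.530 CPM in the Rif1_KO-labelled libraries, against 0.737 and 16.8 CPM in those labelled WT. It was high only in WT replicate 2, at 22.8 times the next library. Msh5 had 7.53 and 4.93 CPM in the Rif1_KO-labelled libraries, against 18.9 and 2.15 CPM in those labelled WT, so its 2 libraries labelled WT lay on either side of the others (log2 fold change -0.76, SE 1.48, edgeR adjusted p = 0.936). Msh4, its partner, had at most 17 counts and Tex11, a meiotic gene of the X chromosome, at most 11. Tex15, required for meiotic break repair in mouse testis, had 33.98 and 25.8 CPM in the Rif1_KO-labelled libraries, against 37.9 and 12.3 CPM in those labelled WT, and its log2 fold change of 0.26 (SE 0.94) was not called (edgeR adjusted p = 0.973).

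By test, 15 of the 34 members passed the filter on low counts, and edgeR called 0 of them in either direction, where it called 0.0129% of all tested genes. At an unadjusted p under 0.05 edgeR gave 1 member, Syce1, lower in the Rif1_KO-labelled libraries, where 3.05% of all tested genes were lower at that p and 8.41% passed it in either direction. DESeq2 called 0 members, against 3.36% of all tested genes, and limma-voom 0. The median log2 fold change of the 15 was -0.77, beside -0.11 over all tested genes. By limma-voom the members' median was -0.06, beside 0.08 over all genes, and without WT replicate 2 it was 0.78 over the 18 members then tested, beside 0.28. By class, the edgeR median was -1.49 over the 9 tested axis and synapsis genes and 0.26 over the 5 tested recombination genes. Both Rif1_KO-labelled libraries were above both labelled WT in 3 of the 15 (Ythdc2, Psmc3ip and Mnd1), where 21.0% of all tested genes were, and below both in 3 (Rec8, Syce1 and Rec114), where 18.4% were. The 19 members that did not pass had 0 to 244 counts in a library. Of these, 14 stayed under 20 counts everywhere.

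**Figure D2:**
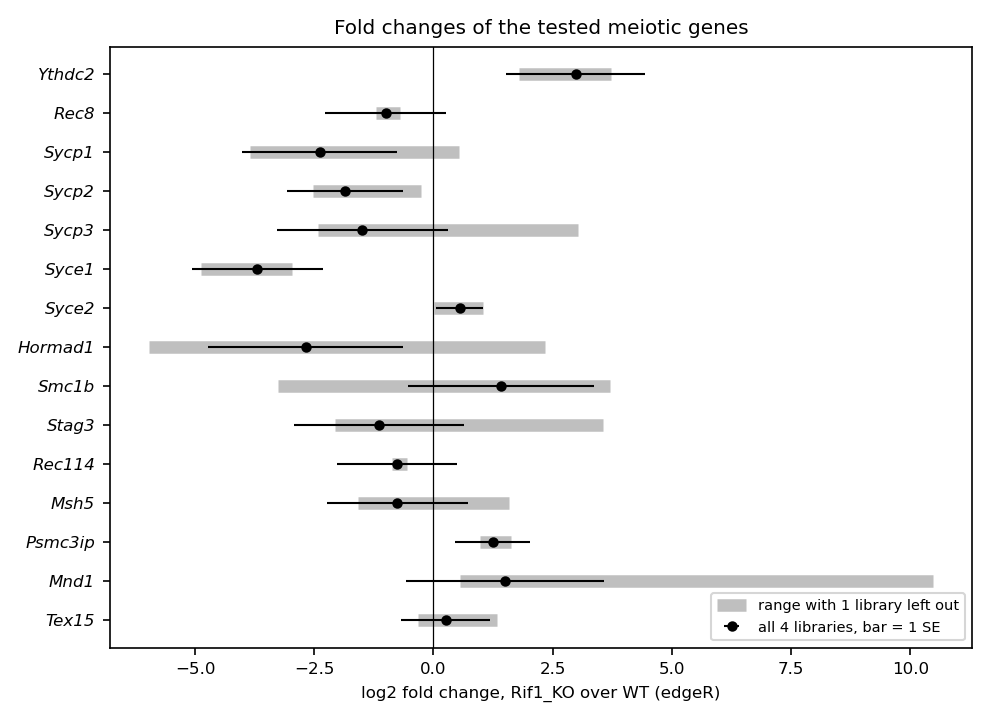
Log2 fold change of the 15 tested meiotic genes, Rif1_KO over WT, from edgeR with all 4 libraries (points, bars 1 SE) and its range when 1 library was left out (grey bands). The bands of Sycp1, Sycp3, Hormad1, Smc1b, Stag3, Msh5 and Tex15 cross 0, and that of Mnd1 reaches 10.47, a fit against 1 library with 0 counts.

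Calls appeared when 1 library labelled WT was left out, and differed with which one. Without WT replicate 1, Hormad1 was called lower in the Rif1_KO-labelled libraries, with a log2 fold change of -3.61 (edgeR adjusted p = 0.00164), in a fit that called 7.17% of all genes. Stra8, Hormad2 and Mlh3 also passed there, with log2 fold changes of -6.94, -6.44 and -4.92 (edgeR adjusted p of 0.000188, 0.00367 and 0.0317). These 3 had failed the filter with all 4 libraries and entered this fit only through WT replicate 2, where they are high. Their direction was fixed by that, and their calls support nothing. Without WT replicate 2, 1 member, Mnd1, was called higher (edgeR adjusted p = 0.0084), in a fit that called 4.76% of all genes. With WT replicate 1 alone at 0 counts, the mean Mnd1 level of the Rif1_KO-labelled libraries was at least 44.7-fold higher than the floor of 3 counts. In these fits the lone library labelled WT is taken to vary like the Rif1_KO-labelled libraries. Without Rif1_KO replicate 1, edgeR called 0 members and 0.0432% of all genes, and without Rif1_KO replicate 2 it called 0 members and 0.028%. In both of these fits 0 of the 23 members tested had an unadjusted p under 0.05, where 5.08% of all genes did without Rif1_KO replicate 1 and 4.64% without Rif1_KO replicate 2.

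Of the 18 germ cell markers, 2 and 2 had their highest level in Rif1_KO replicates 1 and 2, against 5 and 9 in WT replicates 1 and 2. In WT replicate 2 the 9 of 18 stand beside 13 of 24 members and 28.3% of all genes with 10 counts or more in a library. The 13 include members that reached 10 counts in WT replicate 2 alone, and the 18 markers were not filtered on counts. The markers highest in WT replicate 2 were Ddx4, Dazl, Dppa3, Nanos3, Tfap2c, Dppa5a, Utf1, Alpl and Rnf17. Pou5f1, Dnd1, Prdm14, Sox17 and Tdrd5 were highest in WT replicate 1, Kit and Ifitm3 in Rif1_KO replicate 1, and Prdm1 and Nanog in Rif1_KO replicate 2. Prdm14, a regulator of germ cell specification, had 0.452 and 0.106 CPM in the Rif1_KO-labelled libraries, against 19.9 and 18.4 CPM in those labelled WT (edgeR adjusted p = 0.571, DESeq2 adjusted p = 4.2e-05). Prdm1, another such regulator, had 0.904 and 17.7 CPM in the Rif1_KO-labelled libraries, against 0.276 and 0.322 CPM in those labelled WT. Neither had the pattern of Stra8 or Hormad1. Dppa3, for a factor that protects maternal methylation, had 11.8 and 5.77 CPM in the Rif1_KO-labelled libraries, against 10.2 and 165 CPM in those labelled WT. Dppa5a had 34.4 and 2.28 CPM in the Rif1_KO-labelled libraries, against 3.32 and 241 CPM in those labelled WT. Both were highest in WT replicate 2, as was Ddx4, the germ cell RNA helicase given above. Rif1_KO replicate 1, which was second for Hormad1 and highest for Smc1b, was also second for Dppa5a and highest for Kit, with 11.5 and 2.86 CPM in the Rif1_KO-labelled libraries, against 0.829 and 7.42 CPM in those labelled WT. Other markers went the other way, as Rif1_KO replicate 1 was the lowest library for Dazl, Pou5f1, Tfap2c, Sox17, Tdrd5 and Rnf17. Nor was it raised for Stra8 or Hormad2. The summed level of the 18 germ cell markers was 193 and 110 CPM in the Rif1_KO-labelled libraries, against 153 and 894 CPM in those labelled WT. Ifitm3 alone made up 57.7% and 52.7% of it in the Rif1_KO-labelled libraries and 51.6% in WT replicate 1. It had 111 and 58.0 CPM in the Rif1_KO-labelled libraries, against 79.1 and 99.4 CPM in those labelled WT. In WT replicate 2 the largest share was that of Dppa5a, at 27.0%. All 34 members summed to 367 and 227 CPM in the Rif1_KO-labelled libraries, against 205 and 375 CPM in those labelled WT. In that full sum WT replicate 2 was close to Rif1_KO replicate 1. Syce2, Tex15 and Psmc3ip were then left out after their values were seen. The members without them summed to 69.6 and 58.6 CPM in the Rif1_KO-labelled libraries, against 56.2 and 219 CPM in those labelled WT. WT replicate 2 stood clear of every other library only in this trimmed sum. None of the 18 markers was at 0 in any library, and 11 and 14 reached 10 counts in the Rif1_KO-labelled libraries, against 11 and 13 in those labelled WT. Of the 14 markers tested edgeR called 0, with 1 higher and 4 lower in the Rif1_KO-labelled libraries at an unadjusted p under 0.05. Over all tested genes 5.35% were higher and 3.05% lower at that p. DESeq2 called 3 markers lower (Ddx4, Dazl and Prdm14), where it called 3.36% of all tested genes in either direction. Dazl had 2.03 and 4.08 CPM in the Rif1_KO-labelled libraries, against 13.0 and 196 CPM in those labelled WT. Its groups did not overlap, unlike those of Ddx4 (Dazl edgeR adjusted p = 0.571, DESeq2 adjusted p = 0.00317). In bulk RNA, fewer germ cells and less RNA per germ cell cannot be told apart.

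**Figure D3:**
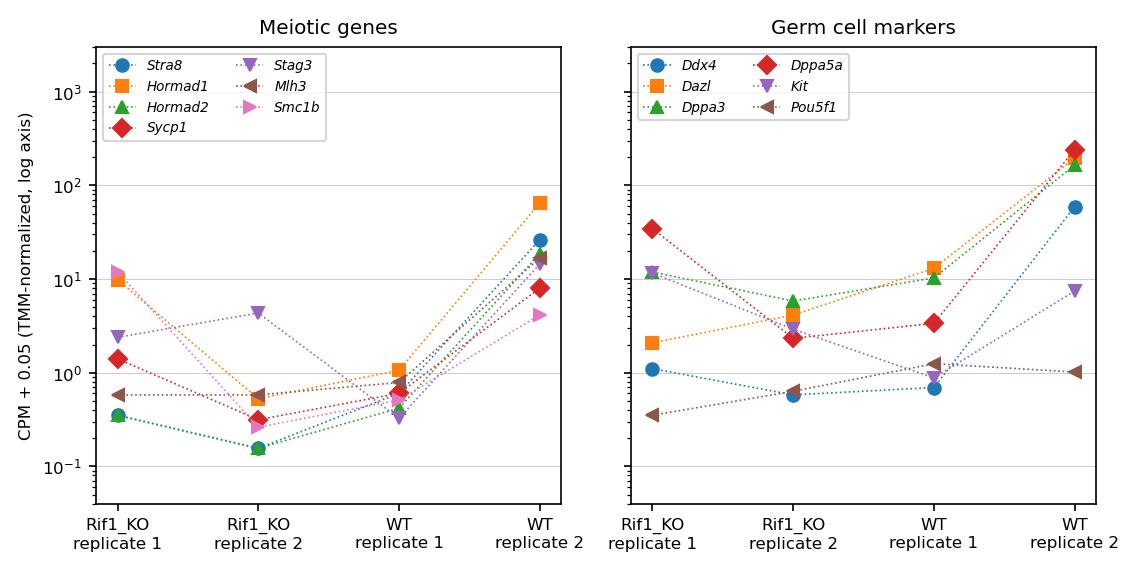
Levels of 7 meiotic genes (left) and 6 germ cell markers (right), picked after their values were seen, in each library as CPM + 0.05 on a log axis; dotted lines join the values of a gene across libraries. WT replicate 2 is highest for 6 of the 7 meiotic genes, all but Smc1b, and for Ddx4, Dazl, Dppa3 and Dppa5a, while Pou5f1 is at most 1.20 CPM throughout.

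Markers of other cell types were summed in the same way. Supporting cell markers (12 genes) summed to 938 and 890 CPM in the Rif1_KO-labelled libraries, against 977 and 788 CPM in those labelled WT. Stromal markers (9 genes) summed to 1621 and 1323 CPM in the Rif1_KO-labelled libraries, against 540.0 and 398 CPM in those labelled WT, where Lum had 4 and 0 counts. Erythroid markers (12 genes) summed to 9803 and 4276 CPM in the Rif1_KO-labelled libraries, against 137320 and 112220 CPM in those labelled WT. Both genes that edgeR called over the whole table were alpha globins of this list, Hba-a1 and Hba-a2, lower in the Rif1_KO-labelled libraries with log2 fold changes of -4.05 and -4.04 (edgeR adjusted p = 0.036 for both). Endothelial markers (7 genes) summed to 77.9 and 146 CPM in the Rif1_KO-labelled libraries, against 226 and 112 CPM in those labelled WT. Mesonephric and epithelial markers (8 genes) summed to 45.7 and 112 CPM in the Rif1_KO-labelled libraries, against 148 and 275 CPM in those labelled WT. Leukocyte markers (7 genes) stayed low, at 2.79 and 3.81 CPM in the Rif1_KO-labelled libraries, against 2.95 and 19.7 CPM in those labelled WT. The part of these cells and of germ cell content in the meiotic values was not tested.

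The cohesin genes of dividing cells were more abundant than their meiotic forms in every library. Per kb of exons, Smc1a had 12.54 and 8.70 CPM in the Rif1_KO-labelled libraries, against 16.8 and 10.7 CPM in those labelled WT. On the same scale Smc1b, its meiotic form, reached 23.5% and 0.601% of the Smc1a level in the Rif1_KO-labelled libraries, against 0.677% and 9.42% in those labelled WT. The share thus ran over a wide range within each label. Rec8 was at 6.75% and 10.8% of the level per kb of Rad21, the kleisin of dividing cells, in the Rif1_KO-labelled libraries, against 27.8% and 9.71% in those labelled WT. Stag3 was at 3.42% and 16.9% of the level per kb of Stag2 in the Rif1_KO-labelled libraries, against 0.613% and 17.6% in those labelled WT. Beside Stag1 it was at 12% and 18.0% in the Rif1_KO-labelled libraries, against 2.0% and 57.6% in those labelled WT. Of the 20 counterparts tested edgeR called 0 and gave 0 at an unadjusted p under 0.05, and DESeq2 called 0. Over all tested genes these shares were 0.0129%, 8.41% and 3.36%. The median log2 fold change of the 20 was 0.04, beside -0.11 over all tested genes.

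**Figure D4:**
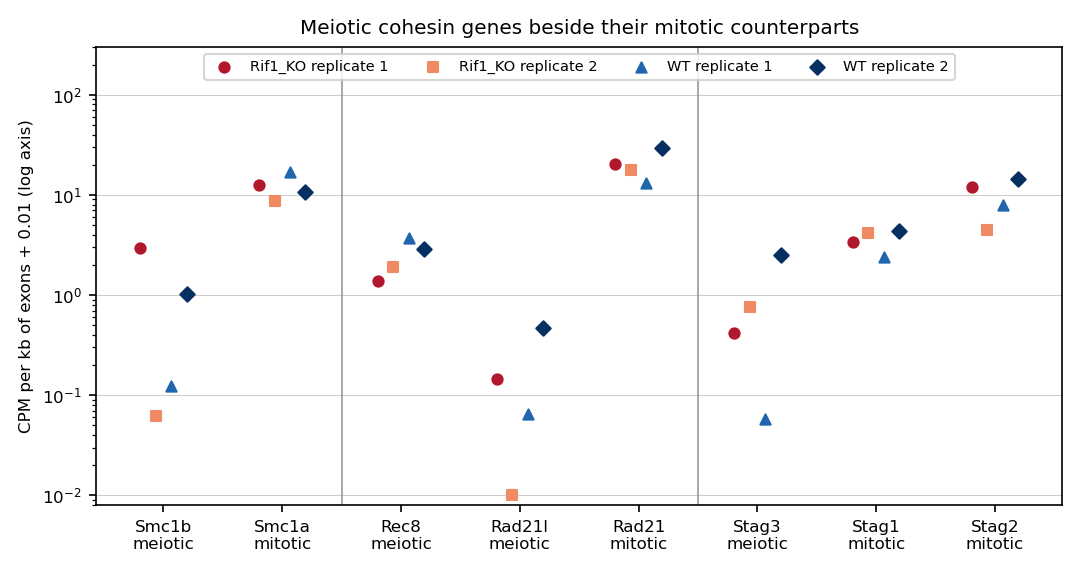
Level per kb of exons (CPM per kb + 0.01, log axis) of 4 meiotic cohesin genes beside the mitotic genes they correspond to, with 1 symbol per library. The cohesin genes Smc1a, Rad21, Stag1 and Stag2 lie between 2.41 and 29.4 CPM per kb in all libraries, above their meiotic counterparts in each.

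Other meiotic genes also varied between libraries of 1 label. Of a further 21 genes of the meiotic programme 13 were tested, and edgeR called 0, with 0 at an unadjusted p under 0.05. DESeq2 called 0. Over all tested genes edgeR called 0.0129%, with 8.41% at an unadjusted p under 0.05, and DESeq2 called 3.36%. The median log2 fold change of the 13 was -0.20, beside -0.11 over all tested genes. Zcwpw1, a reader of the marks that PRDM9 leaves, had the smallest p, with 11.5 and 1.27 CPM in the Rif1_KO-labelled libraries, against 29.8 and 57.8 CPM in those labelled WT. Its log2 fold change was -2.78 (SE 1.28, edgeR adjusted p = 0.625). Ccnb1ip1, for the crossover factor HEI10, had 5.35 and 5.08 CPM in the Rif1_KO-labelled libraries, against 1.66 and 31.3 CPM in those labelled WT. Tdrd9, for a helicase of the piRNA pathway, had 1.21 and 4.29 CPM in the Rif1_KO-labelled libraries, against 0.737 and 1.93 CPM in those labelled WT. Trip13, for the ATPase that removes HORMA proteins from axes, had 9.27 and 53.8 CPM in the Rif1_KO-labelled libraries, against 30.03 and 0.967 CPM in those labelled WT, and was lowest in the library where Hormad1 was highest. Gm4969, the gene model of Meiosin, had 15 and 33 counts in the Rif1_KO-labelled libraries, against 17 and 9 in those labelled WT, so it was not raised where Stra8 was.

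Genes of retinoic acid signalling and of the repressors of germline genes were tested in 21 of 25 cases, and edgeR called 0. At an unadjusted p under 0.05 edgeR gave 2 higher and 1 lower in the Rif1_KO-labelled libraries, where 5.35% and 3.05% of all tested genes were. DESeq2 called 1 higher and 1 lower, where it called 3.36% of all tested genes in either direction. Rarb, for a retinoic acid receptor that is itself induced by retinoic acid, had 6.33 and 28.9 CPM in the Rif1_KO-labelled libraries, against 1.01 and 0.43 CPM in those labelled WT. Its log2 fold change was 4.59 (SE 1.62), with an adjusted p of 0.572 by edgeR and 0.0119 by DESeq2. L3mbtl2, for a subunit of the PRC1.6 repressor, had 0.678 and 1.17 CPM in the Rif1_KO-labelled libraries, against 32.7 and 2.47 CPM in those labelled WT. WT replicate 1 alone was high, and the adjusted p of L3mbtl2 was 0.587 by edgeR and 0.0362 by DESeq2. Crabp2, for a retinoic acid carrier, had 36.2 and 29.0 CPM in the Rif1_KO-labelled libraries, against 61.0 and 89.3 CPM in those labelled WT (log2 fold change -1.21, edgeR adjusted p = 0.632).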

How the data were processed

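The deposited values are raw counts per gene for 4 libraries. Per the file headers, the authors counted with featureCounts 1.6.2 on GENCODE M17, at a mapping quality of at least 30, giving a read to each gene it overlaps and using no strand option. The submitters' processing notes name Trim Galore, FastQC, HISAT2, SAMtools and build mm10. Aligner settings are not given in the sources used here.

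Groups and replicate numbers came from the sample titles. Replicates differed beyond sampling noise (chi-square over its degrees of freedom 86.6 for Rif1_KO and 107 for WT). Genes were filtered with filterByExpr (minimum count 10) and fitted with edgeR 4.0.16 in R 4.3.3 (TMM, robust quasi-likelihood test, no covariate), with Benjamini-Hochberg adjustment over all 15466 tested genes at 0.05. SE is the log2 fold change over the square root of F. Alternatives were DESeq2 1.42.0, voom in limma 3.58.1, other scalings and filters, a replicate block and leaving out each library. The edgeR fit, without the filter on low counts, was also run on simulated counts. Over all genes the log2 fold change had a median of -0.11 by TMM, -0.19 by DESeq2's factors and 0.16 by upper-quartile factors, relative to which single values are to be read. A floor is 3 counts and covers counting error only. Exon overlaps came from the coordinates in the table and promoter windows from RefSeq (GRCm38.p6).

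The members and lists were chosen with earlier results of these data known. Every member is named, the tested ones with each library's level, fold change and adjusted p. From the other meiotic list and the retinoic acid and repressor list the 4 genes of smallest p are named, and mitotic genes where they pair with a member, except for results that are not reported here. Gm4969, the named germ cell markers, Lum and the globins were chosen after their values were seen.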

Additional observations from a re-analysis of the deposited data

How the results depend on the processing

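Over all genes edgeR called 2, against 54 without the filter on low counts, 0 with the stricter filter (942 at an unadjusted p under 0.05), 0 with upper-quartile factors (1350 at an unadjusted p), 519 by DESeq2, and 5 to 1345 with 1 library left out. The called members numbered 0 to 4 with 1 library left out and 0 under every other setting run, namely both scalings, both filters, DESeq2, limma-voom, the block and the members without exon overlap. With the replicate number as a block edgeR called 7 genes and 0 members. The correlation of same-numbered deviations was -0.023, so the numbers were not taken to pair the libraries.

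With 1 library left out, the log2 fold change ran from -3.84 to 0.54 for Sycp1, -2.43 to 3.03 for Sycp3, -5.97 to 2.34 for Hormad1, -3.25 to 3.70 for Smc1b, -2.07 to 3.55 for Stag3, -1.59 to 1.58 for Msh5 and -0.33 to 1.34 for Tex15. The median over the members was -0.49 with upper-quartile factors, -0.08 with the block and -1.27 to 0.78 with 1 library left out. Stag3 was also above 0 by limma-voom (0.53) and with the block (0.49). Under the settings that keep all 4 libraries, the direction and call of the other 14 tested members held. Detection at 1 count or more gave 32 and 29 members in the libraries labelled Rif1_KO and 31 and 32 in those labelled WT, and at 5 counts or more 19 in WT replicate 1. At these depths members with under 10 counts cannot be compared between labels.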
